A study of Homo sapiens with 6 samples.

Results

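Secreted proteins of the innate defence of glandular and airway epithelium were followed by 8 genes, BPIFA1, BPIFB1, LYZ, PIP, SLPI, PIGR, WFDC2 and LCN2, each found by its symbol among the 17758 genes of the deposited table. BPIFA1, BPIFB1, LYZ and PIP had been picked for their pattern between the groups compared here, so their values are given as a description and without a test. SLPI, PIGR, WFDC2 and LCN2 were not picked for their pattern and were tested. The cells were T47D, a line derived from a human ductal carcinoma of the breast that expresses the oestrogen receptor, grown in RPMI 1640 with fetal bovine serum. Poly(A)-selected RNA was sequenced from 3 libraries of cells carrying a lentiviral short hairpin RNA against CUEDC1 (shCUEDC1) and from 3 libraries of cells carrying a non-targeting hairpin RNA (shNC), so that every library came from cells with a stable lentiviral insertion. The labels do not give the number of hairpins, infections or clones, so the loss of CUEDC1 and an off-target action of a hairpin cannot be told apart. The labels do not say from which cultures the replicates came, and a p-value here is set against a spread that may be technical.

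Glandular epithelium releases proteins that bind, lyse or starve microbes and that restrain the proteases of inflammation. BPIFA1 and BPIFB1 belong to a family of lipid-binding proteins related to the bactericidal permeability-increasing protein and are best known from the airway and salivary glands. LYZ encodes lysozyme, which cleaves bacterial cell walls, PIP the prolactin-induced protein of apocrine secretions and of many breast tumours, and LCN2 a lipocalin that captures bacterial siderophores. SLPI and WFDC2 carry the cysteine-rich WAP fold, and SLPI inhibits neutrophil elastase. PIGR, the polymeric immunoglobulin receptor, carries IgA and IgM across the epithelium, and its outer part is released as secretory component.

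BPIFA1 and BPIFB1 lie on chromosome 20 with 39.9 kb between them, and both were lower in shCUEDC1. Their upstream sequences are shown because this neighbouring pair had the largest differences of the 8 genes, that of PIP because its level differed between the shNC libraries, and that of PIGR because it fell by the test. RefSeq entries were matched for 6 of the 8 genes (GRCh38.p14), all but LYZ and SLPI. Each line gives the 250 bases before the annotated start, 5′ to 3′. Capitals mark the stretch shared by BPIFA1 and BPIFB1, the TATAAA of BPIFA1, the AGAACA and the TTCNNNGAA of PIP, and the AGAACA of PIGR.
BPIFA1 (chr20:33235746-33235995, plus strand): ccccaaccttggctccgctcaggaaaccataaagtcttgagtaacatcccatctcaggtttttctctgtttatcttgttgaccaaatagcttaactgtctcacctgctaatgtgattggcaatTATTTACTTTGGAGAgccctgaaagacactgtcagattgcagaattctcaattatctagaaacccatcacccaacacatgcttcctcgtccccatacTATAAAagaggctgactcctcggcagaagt
BPIFB1 (chr20:33282964-33283213, plus strand): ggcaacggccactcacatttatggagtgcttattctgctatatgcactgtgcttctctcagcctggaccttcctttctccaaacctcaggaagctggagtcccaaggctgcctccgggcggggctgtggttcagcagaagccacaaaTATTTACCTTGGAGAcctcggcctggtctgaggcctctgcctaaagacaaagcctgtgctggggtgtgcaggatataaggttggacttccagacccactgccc
PIP (chr7:143131827-143132076, plus strand): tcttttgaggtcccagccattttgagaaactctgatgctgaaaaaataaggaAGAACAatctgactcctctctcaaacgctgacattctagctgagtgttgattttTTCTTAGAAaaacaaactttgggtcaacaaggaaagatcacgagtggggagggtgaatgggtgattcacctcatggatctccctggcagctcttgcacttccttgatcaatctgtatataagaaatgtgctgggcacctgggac
PIGR (chr1:206946467-206946716, minus strand): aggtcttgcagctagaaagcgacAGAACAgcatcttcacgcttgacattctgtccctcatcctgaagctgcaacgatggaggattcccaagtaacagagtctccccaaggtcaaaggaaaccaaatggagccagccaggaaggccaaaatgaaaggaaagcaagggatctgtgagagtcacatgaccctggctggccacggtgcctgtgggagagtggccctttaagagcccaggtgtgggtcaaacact

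The longest stretch that BPIFA1 and BPIFB1 shared with 1 mismatch allowed was 15 bases long and is written TATTTACNTTGGAGA. It starts 127 bases before the start of BPIFA1 and 103 bases before that of BPIFB1. On both strands it was found in 2 of 35116 promoters of this length, those of this pair, and since its letters were read from them, that count is no test. Its first part, TATTTAC, is a forkhead-type motif and was present in 2.39% of all promoters. The STAT-type motif TTCNNNGAA was found in 6.57% of promoters and, of the 6 examined, in that of PIP, 144 bases before the start. AGAACA, the core of the site bound by the glucocorticoid receptor, was found in 12.4% of promoters and in those of PIP and PIGR, and TATAAA in 10.7% and in that of BPIFA1. The NF-kappa B motif, searched as GGGA and TTTCC around any 1 base, was found in 0.527% of promoters and in none of the 6. The promoters of WFDC2 and LCN2 held none of these motifs. Such matches describe letters and do not show that a factor binds.

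CUEDC1, the target of the hairpin, was at 31.4, 33.8 and 32.0 CPM (read counts scaled by TMM library size) in shCUEDC1 1 to 3, against 110, 109 and 93.3 CPM in shNC 1 to 3, which checks the labels. Totals lay between 18924327 and 19731609 estimated reads per library. Of 13824 genes tested, 1377 (9.96%) were called changed at a Benjamini-Hochberg adjusted p below 0.05 by edgeR's quasi-likelihood test, 717 (5.19%) higher and 660 (4.77%) lower in shCUEDC1. The library shNC 3 stood apart from shNC 1 and 2 on the second principal component, which held 32.4% of the variance, and 3925 of 13982 genes (28.1%) were called without it, 1996 (14.3%) higher and 1929 (13.8%) lower. Luminal markers such as KRT8, KRT18, GATA3 and ESR1 were expressed in all 6 libraries, as the label of the line requires. Their summed level was 12413 to 12532 CPM in shCUEDC1 and 10301 to 12244 CPM in shNC.

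**Figure D1:**
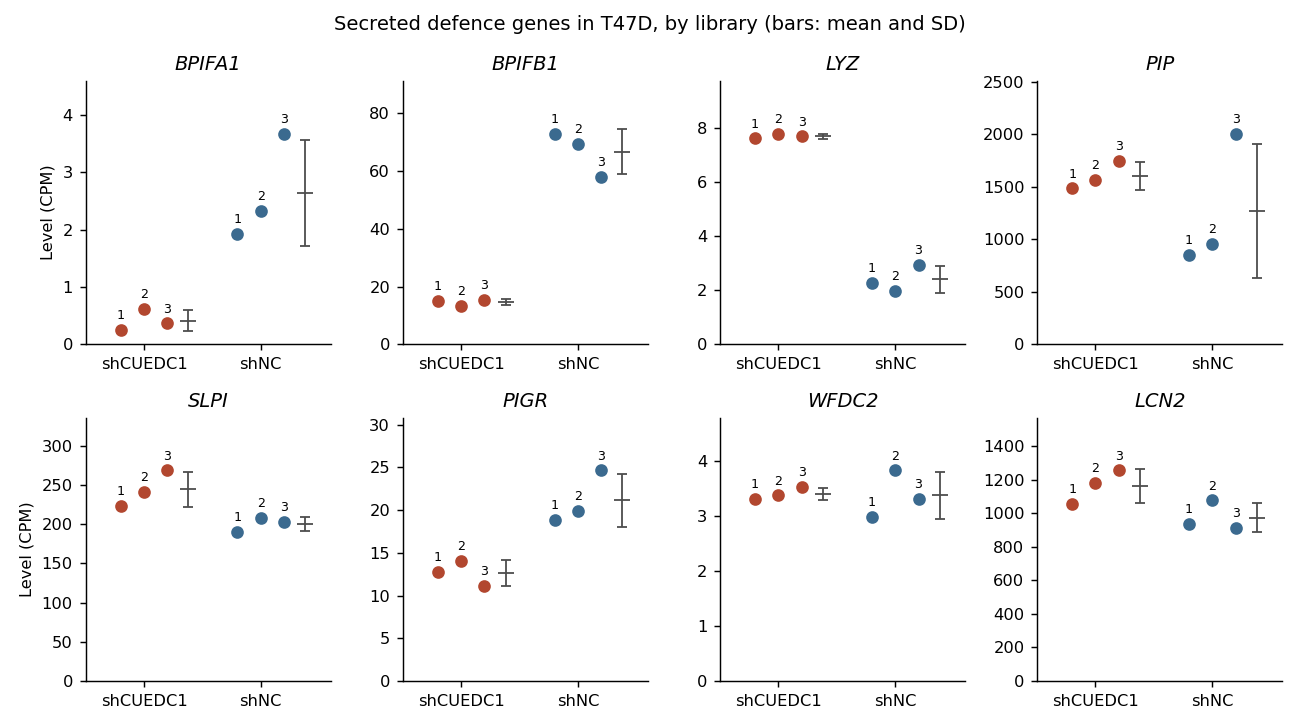
Level in CPM of the 8 genes in each library, shCUEDC1 on the left and shNC on the right of each panel, with the replicate number above each point and the mean and SD of 3 libraries beside the points. Each panel has its own scale from 0. The groups do not overlap for BPIFA1, BPIFB1, LYZ, SLPI and PIGR, as is so for 31.3% of all genes tested. Of these, BPIFA1, BPIFB1 and LYZ were picked for their pattern. For PIP, shNC 3 lies far above shNC 1 and 2.

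Levels per gene length spanned more than 3 orders of magnitude. PIP was the most abundant of the 8 genes in every library, followed by LCN2 and SLPI. In shCUEDC1 the mean levels were 3000 FPKM for PIP, 1501 FPKM for LCN2 and 444 FPKM for SLPI, and in shNC they were 2414, 1272 and 368 FPKM. PIP ranked between 3 and 4 among all genes by FPKM in the shCUEDC1 libraries, and 26, 20 and 2 in shNC 1, 2 and 3. The other 5 genes had a mean below 10 FPKM in shCUEDC1, and BPIFB1 was the only one of them above that level in shNC. The order at the low end differed between the groups. In shCUEDC1 it ran BPIFB1, WFDC2, LYZ, PIGR and BPIFA1 from high to low in all 3 libraries, and in shNC it ran BPIFB1, WFDC2, PIGR, BPIFA1 and LYZ in all 3. In shNC the ranges of WFDC2 (5.79 to 7.43 FPKM) and PIGR (4.52 to 5.95 FPKM) overlapped. So did those of BPIFA1 (1.94 to 3.65 FPKM) and LYZ (1.39 to 2.05 FPKM). Within each shNC library WFDC2 was nevertheless above PIGR and BPIFA1 above LYZ, and these differences between genes were not tested. Together the 8 genes took 0.279%, 0.302% and 0.327% of the estimated reads in shCUEDC1, against 0.209%, 0.235% and 0.323% in shNC, and PIP, LCN2 and SLPI made up at least 95.2% of their reads in every library.

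BPIFB1 (Entrez 92747, chromosome 20, 33283214 to 33309871, plus strand, GRCh38) was at 14.9, 13.3 and 15.3 CPM in shCUEDC1, against 73.0, 69.4 and 58.0 CPM in shNC. Every shCUEDC1 library lay far below every shNC library. The log2 difference of shCUEDC1 over shNC was -2.20 (SE 0.10, 95% interval -2.43 to -1.98), a fold of 0.217, and leaving out any 1 library gave values between -2.29 and -2.13. Over all genes, 0.767% were called lower by over 2-fold. BPIFB1 was picked for its pattern, so this share does not measure how unusual it is. BPIFA1 (Entrez 51297, chromosome 20, 33235996 to 33243306, plus strand) was at 0.255, 0.614 and 0.363 CPM in shCUEDC1, against 1.92, 2.32 and 3.67 CPM in shNC. These are 4.99, 12 and 7.01 estimated reads in shCUEDC1 and 38, 46 and 70 in shNC, so its log2 difference of -2.66 carries a wide interval (-3.52 to -1.81). BPIFA1 passed the filter on low counts through the shNC libraries, all 3 of which were above the filter's level of 0.509 CPM, while 1 of the 3 shCUEDC1 libraries was. Leaving out any 1 library gave -3.07 to -2.35 for BPIFA1. The 2 genes differed in shNC 3, which had 1.73 times the mean of shNC 1 and 2 for BPIFA1 and 0.815 times that mean for BPIFB1.

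The rest of the family was mostly too low to test. Of 13 genes listed, 10 were in the table and 4 passed the filter, the pair and LBP and PLTP, which carry lipopolysaccharide and phospholipids in plasma. LBP was at 7.80 ± 0.875 CPM in shCUEDC1 and 11.3 ± 2.18 CPM in shNC (SD, n = 3 each), with a log2 difference of -0.54 (edgeR adjusted p = 0.0543). PLTP differed by 0.60 (edgeR adjusted p = 0.151). Neither was called, and without shNC 3 LBP was called (-0.58, edgeR adjusted p = 0.00410). Around the pair, 12 other genes within 500 kb were tested, with a median log2 difference of 0.02. Of them 0 were called in either direction, where 9.96% of all genes were. The nearest tested genes outward were EFCAB8, with a difference of -0.08 (edgeR adjusted p = 0.844), and CDK5RAP1, with 0.15 (edgeR adjusted p = 0.183).

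LYZ (Entrez 4069, chromosome 12, 69348381 to 69354234, plus strand) was at 7.60, 7.77 and 7.67 CPM in shCUEDC1, against 2.28, 1.97 and 2.94 CPM in shNC. The 3 shCUEDC1 libraries were close to each other (SD 0.0891 CPM) and above every shNC library. The log2 difference was 1.68 (SE 0.164, 95% interval 1.31 to 2.05), or 3.21-fold, and ranged from 1.56 to 1.86 when 1 library was left out. Over all genes, 0.405% were called higher by over 2-fold, a share that is no test of LYZ, which was picked for its pattern. A gene on the opposite strand, AC020656.1, overlaps LYZ in GENCODE v29, and the use of strand in counting is not given in the sources used here. Other lysozyme genes were too low to test, with 6 of the 7 in the table removed by the filter. The neighbours CPSF6 and YEATS4, 74.0 kb and 5.51 kb away, differed by -0.01 and 0.03 (edgeR adjusted p = 0.953 and 0.753).

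Lysozyme is also a product of macrophages and neutrophils, so leukocyte markers were read beside it. Of 15 listed, 13 were in the table and 6 were tested, and 0 of them were called, where 9.96% of all genes were. Their summed level was 9.69 to 11.1 CPM in shCUEDC1 and 11.3 to 11.9 CPM in shNC. PTPRC, the common leukocyte antigen, was at 0.548 CPM in shCUEDC1 and 0.713 CPM in shNC, and CD68 was at 3.80 and 3.29 CPM in the same order of groups (edgeR adjusted p = 0.504). Without shNC 3, LAPTM5 alone of the 6 was called, and it was lower in shCUEDC1 (-0.82, edgeR adjusted p = 0.0164). Markers of airway and salivary epithelium summed to 6.44 to 7.83 CPM in shCUEDC1 and 7.96 to 9.92 CPM in shNC. Of the 5 tested, AQP5, a water channel of glands, was called lower (-1.32, edgeR adjusted p = 0.0450) at 0.359 CPM in shCUEDC1 and 0.905 CPM in shNC, and that call was lost when any 1 library other than shNC 3 was left out (highest edgeR adjusted p = 0.180). Without shNC 3, FOXJ1, a factor of ciliated cells, was also called lower (-1.09, edgeR adjusted p = 0.00179).

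PIP (Entrez 5304, chromosome 7, 143132077 to 143139739, plus strand) was at 1483, 1567 and 1744 CPM in shCUEDC1, against 850, 954 and 2004 CPM in shNC. The groups overlapped, because shNC 3 lay above all shCUEDC1 libraries and shNC 1 and 2 lay below them. The log2 difference was 0.33 with an interval from -0.55 to 1.22, and it was 0.83 without shNC 3. Its direction against shNC 1 and 2 (1.77 times their mean in shCUEDC1) and against shNC 3 was opposite. A level over 1.5 times the mean of shNC 1 and 2 in shNC 3 was found for 2.63% of genes (mean level 1 CPM or more), and PIP reached 2.22 times. Of its nearest tested neighbours, GSTK1, a glutathione transferase gene 124 kb away, rose by 0.31 (edgeR adjusted p = 0.00932, lost without shCUEDC1 2 or 3, highest 0.0637). TRPV6, a calcium channel gene on the other side, differed by 0.13 and was called without shNC 3 alone (edgeR adjusted p = 0.452 with all libraries). Like PIP, TRPV6 was lowest in shNC 1 and 2 and highest in shNC 3. It was at 104, 102 and 104 CPM in shCUEDC1, against 84.0, 86.1 and 112 CPM in shNC. GSTK1 did not have this order and was lowest in shNC 3, at 64.6 CPM.

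Other markers of apocrine cells, which secrete PIP, were read in the same way. CYP4Z1, a fatty acid hydroxylase of mammary cells, was at 62.9, 65.1 and 63.7 CPM in shCUEDC1, against 41.3, 38.3 and 83.4 CPM in shNC. It had the order seen for PIP, lowest in shNC 1 and 2 and highest in shNC 3. With all libraries CYP4Z1 was not called (edgeR adjusted p = 0.690), and without shNC 3 it was called higher, by 0.69. SERHL2 was low in shNC 3, with 12.5, 16.3 and 13.4 CPM in shCUEDC1, against 11.1, 11.2 and 2.78 CPM in shNC.

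**Figure D2:**
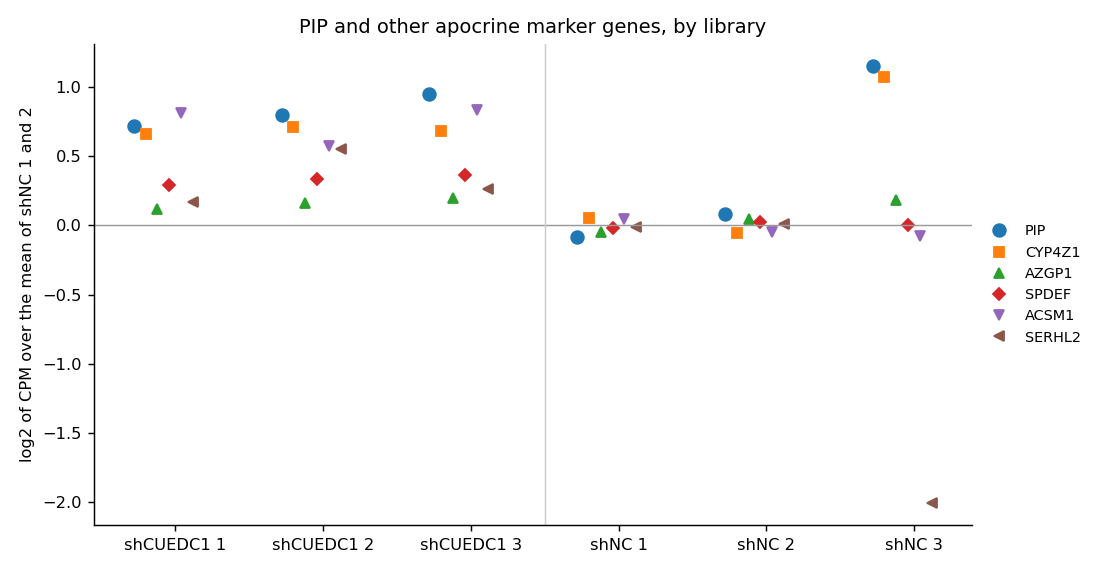
Levels of PIP and 5 other apocrine marker genes in each library, as the log2 of CPM over the mean of shNC 1 and shNC 2, with shCUEDC1 libraries on the left. PIP and CYP4Z1 lie above 0 in all shCUEDC1 libraries and higher still in shNC 3, and SERHL2 is low there.

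Apart from PIP, 2 of 12 apocrine markers tested rose and 0 fell, which is 16.7%, beside 9.96% of all genes. Their median was 0.12, beside a median of -0.004 over all genes. SPDEF, a transcription factor of secretory cells, rose to 204 ± 5.12 CPM in shCUEDC1, against 162 ± 2.51 CPM in shNC (SD, n = 3 each; log2 change 0.33, edgeR adjusted p = 0.00209). ACSM1, an acyl-CoA synthetase, rose by 0.77 (edgeR adjusted p = 0.0317), a call lost when any 1 library other than shNC 3 was left out (highest edgeR adjusted p = 0.134). ACSM1 overlaps ACSM3 on the opposite strand. AZGP1, a secreted zinc-binding glycoprotein, was at 345 ± 9.42 CPM in shCUEDC1 and 323 ± 26.5 CPM in shNC and was not called (edgeR adjusted p = 0.373). Without shNC 3, 6 of the 12 were called higher and 1 lower, beside 14.3% and 13.8% of all genes.

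Of the 4 genes that were tested, PIGR and SLPI were called, PIGR lower and SLPI higher, where 9.96% of all genes were called. Their groups did not overlap, as was so for 31.3% of all genes. PIGR (Entrez 5284, chromosome 1, 206928522 to 206946466, minus strand) was at 12.8, 14.1 and 11.1 CPM in shCUEDC1, against 18.9, 19.9 and 24.7 CPM in shNC. All shCUEDC1 libraries lay below all shNC libraries. PIGR fell by 40.1% (log2 change -0.74, SE 0.126, 95% interval -1.02 to -0.46, edgeR adjusted p = 0.00605). Its two-sided p by exact permutation was 0.1, the smallest that 3 against 3 libraries allow. Its call held whichever library was left out, with log2 changes of -0.82 to -0.61 and a highest edgeR adjusted p of 0.0474. The level was highest in shNC 3, at 1.27 times the mean of shNC 1 and 2. Of its neighbours, FCMR, an IgM receptor gene 5.33 kb away, differed by 0.56 at under 1 CPM (edgeR adjusted p = 0.533), and C1orf116 by -0.03 (edgeR adjusted p = 0.922).

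Of the 4 genes of immunoglobulin transport in the table, 2 fell and 0 rose, where 4.77% of all genes were called lower. PIGR was 1 of these 2. The other was CCL28, a mucosal chemokine that attracts IgA-producing plasma cells and is itself antimicrobial. CCL28 fell to 167 ± 5.91 CPM in shCUEDC1, against 217 ± 16.3 CPM in shNC (SD, n = 3 each; log2 change -0.38, edgeR adjusted p = 0.00474), and kept its call whichever library was left out. FCGRT, the heavy chain of the neonatal Fc receptor, differed by -0.11 (edgeR adjusted p = 0.668) and was called lower without shNC 3 (edgeR adjusted p = 0.0242).

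SLPI (Entrez 6590, chromosome 20, 45252239 to 45254564, minus strand) was at 223, 241 and 269 CPM in shCUEDC1, against 190, 208 and 203 CPM in shNC. The groups did not overlap, but the lowest shCUEDC1 library lay close to the highest shNC library. SLPI rose by 22.0% (log2 change 0.29, SE 0.0689, 95% interval 0.13 to 0.44, edgeR adjusted p = 0.0286). By exact permutation p was 0.1, the smallest possible. The call was lost without shNC 1, shNC 3, shCUEDC1 2 or shCUEDC1 3, with log2 changes of 0.22 to 0.30 in those 4 fits and a highest edgeR adjusted p of 0.110. WFDC2 (Entrez 10406, chromosome 20, 45469753 to 45481532, plus strand), known as the tumour marker HE4, was at 3.31, 3.38 and 3.52 CPM in shCUEDC1, against 2.99, 3.83 and 3.31 CPM in shNC. Its 3 shCUEDC1 libraries lay inside the range of shNC. WFDC2 was not called (edgeR adjusted p = 0.971; by exact permutation, p = 0.8), with a log2 difference of 0.01, and at these low counts its 95% interval of -0.36 to 0.38 still holds an increase of 1.30-fold.

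Of the 6 genes of the WAP family that were tested, SLPI alone was called (16.7%, beside 9.96% of all genes). PI3, elafin, another inhibitor of neutrophil elastase and the nearest tested neighbour of SLPI, was at 40.6 ± 2.26 CPM in shCUEDC1 and 47.9 ± 2.57 CPM in shNC (log2 difference -0.24, edgeR adjusted p = 0.0549). It was called lower without shNC 3 (-0.21, edgeR adjusted p = 0.0117). EPPIN, WFIKKN1 and WFIKKN2, at under 2 CPM on average, differed by -0.05, -0.71 and -0.53 and were not called with all libraries (edgeR adjusted p = 0.941, 0.318 and 0.555), and WFIKKN2 was called lower without shNC 3 (edgeR adjusted p = 0.0401). Within 500 kb of SLPI and WFDC2, 25 other genes were tested and 0 were called, where 9.96% of all genes were. The neighbours SDC4 and PIGT were among them at 0.02 and -0.006.

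LCN2 (Entrez 3934, chromosome 9, 128149453 to 128153453, plus strand) was at 1058, 1181 and 1257 CPM in shCUEDC1, against 937, 1077 and 912 CPM in shNC. The groups overlapped, since shNC 2 lay above shCUEDC1 1. The log2 difference was 0.26 (SE 0.0784, 95% interval 0.08 to 0.43) and was not called (edgeR adjusted p = 0.0703; by exact permutation, p = 0.2). DESeq2 called it (0.26, adjusted p = 0.0155), as did edgeR without shNC 2 (0.33, adjusted p = 0.0239). Among the 9 lipocalins tested, 1 rose and 0 fell (11.1%, near the 9.96% of all genes), with a median of 0.13. APOD, apolipoprotein D, a lipid carrier abundant in breast cyst fluid, rose to 217 ± 10.5 CPM in shCUEDC1, against 103 ± 15.4 CPM in shNC (SD, n = 3 each; log2 change 1.08, edgeR adjusted p = 4.03e-04), and kept its call whichever library was left out. PTGES2 and BBLN, on either side of LCN2, differed by -0.07 and -0.10 and were called without shNC 3 alone (edgeR adjusted p = 0.0203 and 0.0120).

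**Figure D3:**
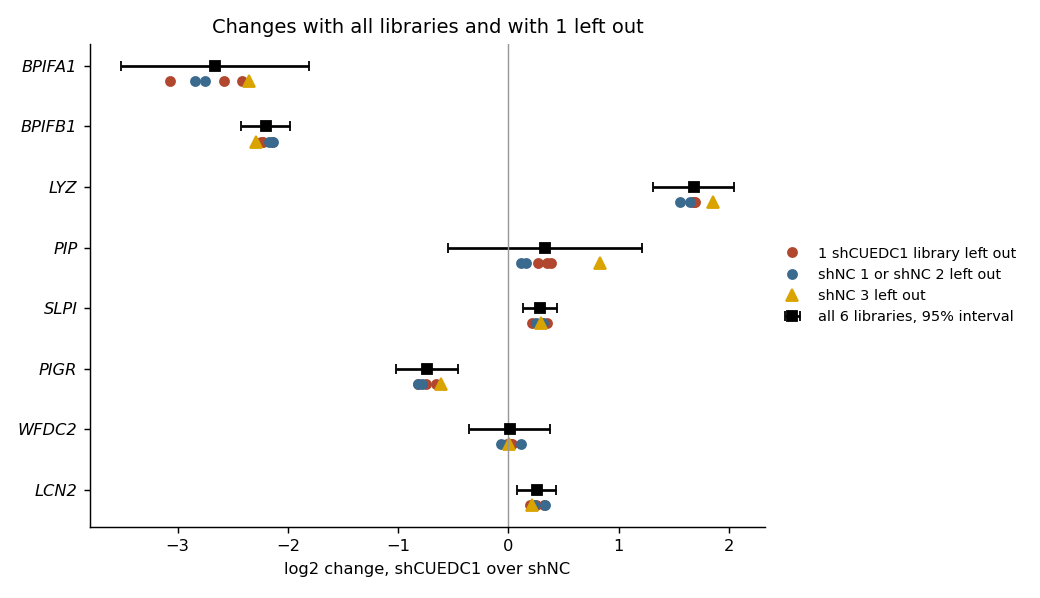
Log2 change of shCUEDC1 over shNC for the 8 genes, as squares with 95% intervals from all 6 libraries and, under each, the values with 1 library left out. WFDC2 alone changes sign in these fits, and PIP moves from 0.33 to 0.83 when shNC 3 is left out.

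Among 15 other antimicrobial proteins tested, 2 rose and 3 fell (33.3%, beside 9.96% of all genes), with a median of 0.11. LTF, lactoferrin, an iron-binding milk protein, fell to 16.6 ± 1.17 CPM in shCUEDC1, against 28.7 ± 5.63 CPM in shNC (SD, n = 3 each; log2 change -0.79, edgeR adjusted p = 0.00584). PGLYRP2, a peptidoglycan-cleaving amidase, fell by 1.45 on the log2 scale (-1.45, edgeR adjusted p = 0.00721), and PGLYRP3, of the same family and named after its value was seen, fell too (log2 change -1.001, edgeR adjusted p = 0.0328). Both had means under 6 CPM in either group. RNASE4, a secreted ribonuclease, rose by 0.75 (edgeR adjusted p = 0.00252), and CFB, complement factor B, rose to 1826 ± 60.9 CPM in shCUEDC1, against 1500 ± 87.1 CPM in shNC (log2 change 0.28, edgeR adjusted p = 0.0101). RNASE4 overlaps ANG and CFB overlaps C2 on the same strand, so some of their reads may belong to the neighbour. S100A8 and S100A9, the subunits of calprotectin, were abundant and were not called (0.11 and -0.03, edgeR adjusted p = 0.533 and 0.731). The calls of LTF and PGLYRP2 were lost without shCUEDC1 3 (edgeR adjusted p = 0.0504 and 0.0580), that of PGLYRP2 also without shCUEDC1 1, that of PGLYRP3 in 4 of the 6 fits that leave out 1 library (highest edgeR adjusted p = 0.146), and that of CFB without shNC 1, shCUEDC1 2 or shCUEDC1 3 (highest edgeR adjusted p = 0.0654).

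Mucins and trefoil peptides with their processing enzymes had 4 rises and 0 falls among 8 tested, where 5.19% of all genes were called higher and 4.77% lower, with a median of 0.34. Without shNC 3, 5 were called higher and 1 lower, the trefoil peptide TFF3 (-0.66, edgeR adjusted p = 0.0206), which was not called with all libraries (-0.36, edgeR adjusted p = 0.571). Over all genes, 14.3% were called higher and 13.8% lower without shNC 3. TFF1, a trefoil peptide, rose by 1.01, AGR3 and AGR2, of the protein disulfide isomerase family, by 0.70 and 0.54, and the membrane mucin MUC1 by 0.44 (edgeR adjusted p = 0.00427, 1.41e-04, 3.09e-04 and 4.10e-04). All 4 kept their calls whichever library was left out. Of 4 secretoglobins and related small proteins tested, MUCL1, a small mucin-like protein of breast and salivary glands, rose to 21.3 ± 1.18 CPM in shCUEDC1, against 11.8 ± 1.72 CPM in shNC (SD, n = 3 each; log2 change 0.85, edgeR adjusted p = 0.00200). SCGB2A2, mammaglobin A, was at 2.12 CPM in shCUEDC1 and 1.82 CPM in shNC and was not called (edgeR adjusted p = 0.766).

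**Figure D4:**
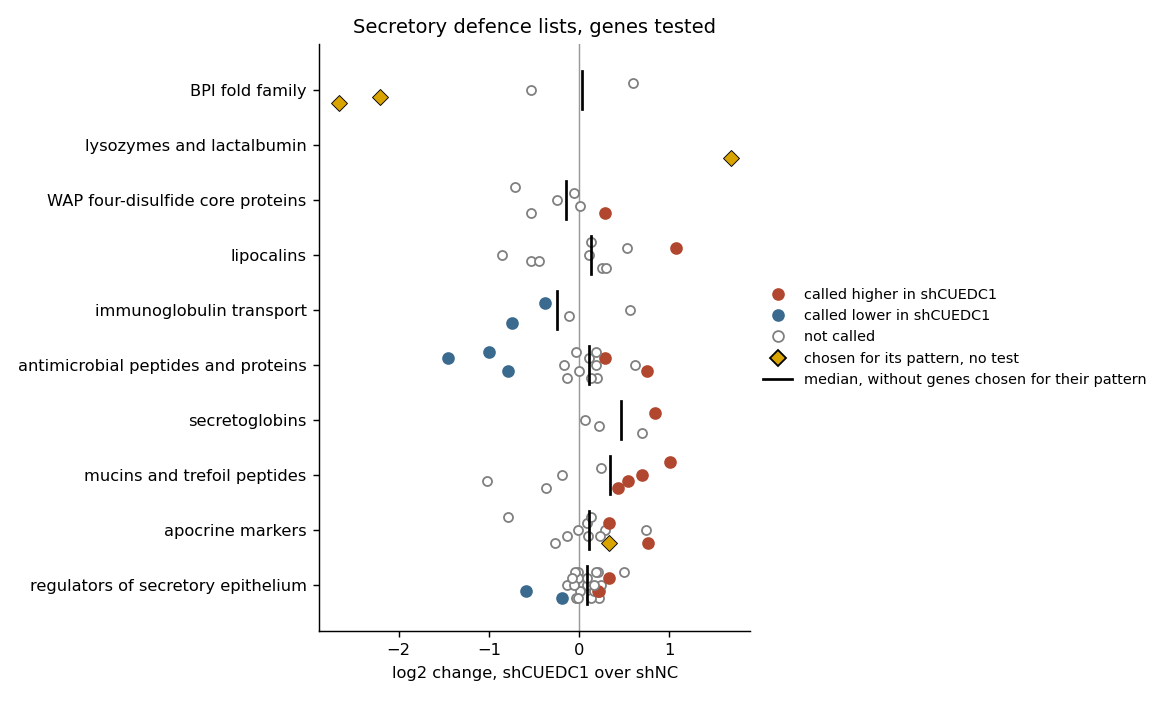
Log2 change of every tested gene of the 9 secretory lists and of the regulators, as filled circles where called, open circles where not, and diamonds for the 4 genes chosen for their pattern, which carry no test. The vertical bar is the median of a list without those 4 genes. Calls lie on both sides of 0 for antimicrobial proteins and for the regulators. They lie only above 0 for mucins and trefoil peptides, apocrine markers, lipocalins, secretoglobins and WAP proteins, and only below 0 for immunoglobulin transport.

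Over the 9 secretory lists together and without the 4 genes chosen for their pattern, 11 genes rose and 5 fell among 60 tested, which is 26.7%, beside 9.96% of all genes. The median was 0.11, beside -0.004 over all genes. Without shNC 3, 20 were called higher and 13 lower among 62 tested, where 28.1% of all genes were called, 14.3% higher and 13.8% lower. These lists were drawn up with earlier results of these libraries known, so the share is no independent evidence.

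Transcription factors that act in secretory epithelium had 3 rises and 2 falls among 25 tested (20%, beside 9.96% of all genes), with a median of 0.09. KLF5 fell to 26.7 ± 1.29 CPM in shCUEDC1, against 40.1 ± 3.32 CPM in shNC (SD, n = 3 each; log2 change -0.58, edgeR adjusted p = 0.00200), and kept its call whichever library was left out. SPDEF rose as above, ELF5, a factor of milk-producing alveolar cells, by 0.23 (edgeR adjusted p = 0.0119) and STAT6, which mediates induction of PIGR by interleukin 4, by 0.21 (edgeR adjusted p = 0.0317). STAT3, named after its value was seen, fell by 0.19 on the log2 scale (-0.19, edgeR adjusted p = 0.0372), a call that held without shNC 3 and was lost without any other library (highest edgeR adjusted p = 0.146). ELF5 lost its call without shNC 1 or any 1 shCUEDC1 library and STAT6 when any 1 library other than shNC 3 was left out, the highest edgeR adjusted p being 0.0753 for ELF5 and 0.164 for STAT6. The NF-kappa B subunits NFKB1, NFKB2, RELA and RELB, which drive LCN2 in inflamed epithelium, differed by between -0.05 and 0.01, with signs that changed when 1 library was left out, and were not called (lowest edgeR adjusted p = 0.788). Without shNC 3, 11 of the 25 were called higher and 2 lower, beside 14.3% and 13.8% of all genes. STAT5A and STAT5B, which relay the prolactin signal to PIP, differed by -0.05 and -0.02 and were not called (edgeR adjusted p = 0.812 and 0.915).

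Of basal and mesenchymal markers, 1 of 6 tested was called (16.7%, beside 9.96% of all genes). It was SPARC, a matrix protein, which fell by 1.46 on the log2 scale (-1.46, edgeR adjusted p = 0.00151). The summed level of that list was 51.4 to 55.3 CPM in shCUEDC1 and 79.7, 80.8 and 49.3 CPM in shNC 1, 2 and 3, so that shNC 3 lay with the shCUEDC1 libraries. Without shNC 3, 4 of the 6 were called lower, KRT17, TP63 and ACTA2 beside SPARC (-0.74, -0.45 and -0.43, edgeR adjusted p = 1.64e-07, 2.99e-04 and 5.50e-05). In that fit 13.8% of all genes were called lower and 14.3% higher. Of 12 luminal markers, TFF1 alone was called (8.33%), and 6 were called higher and 0 lower without shNC 3. Whether the share of cells of a given state contributes to the levels of the secreted genes was not tested, and in bulk RNA fewer expressing cells and less RNA per cell cannot be told apart.

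The genes whose profile over the 6 libraries was most like that of BPIFB1, among 13017 others whose mean was 1 CPM or more, were GLYATL3, COL10A1, CUEDC1, PAMR1 and TIMP3. Their root mean square difference from BPIFB1 in centred log2 CPM was 0.229 to 0.309, and Pearson's r over the 6 libraries was 0.977 to 0.996. For LYZ they were SOX2, ARMCX4, STS, HPGD and GABRA3, at 0.0984 to 0.196. For PIP, searched after its values were seen, they were CYP4Z1, NEK10, SAA2, KCNMA1 and ABCB4, at 0.122 to 0.162. For BPIFB1 and LYZ the likeness lies in the step between the groups, whereas for PIP it lies in the low level of shNC 1 and 2, below every shCUEDC1 library and shNC 3. For SAA2, shNC 3 lay inside the range of the shCUEDC1 libraries, and for the other 4 above it. The genes most alike were chosen over these same 6 libraries, so their likeness is no test of a link.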

How the data were processed

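RNA of 6 T47D libraries was compared, 3 shCUEDC1 and 3 shNC. Per the file headers, the authors deposited estimated counts of reads per gene, not normalised, with FPKM and TPM values scaled to gene length and depth, and a signal column of counts divided by a size factor per library, from the values. Only 21.8% to 24.7% of a library's counts are whole, so they were rounded. The submitters' processing notes name GRCh38.p13. Aligner, counter and strand setting: not given in the sources used here. FPKM was used for levels between genes. TPM, the signal column and the authors' group means were not used in tests.

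Genes were filtered with filterByExpr (minimum count 10), normalised by TMM and tested in R 4.3.3 by the robust quasi-likelihood test of edgeR 4.0.16, with Benjamini-Hochberg adjustment over 13824 genes. CPM is given per library or as mean ± SD. For the 4 tested members, exact permutation tests used log2(CPM + 0.5). Coordinates and upstream sequences came from RefSeq, and strands and overlaps from GENCODE v29, both on GRCh38. Members and lists were chosen with earlier results of these data known. The genes named are the 8 members, CUEDC1, up to 4 called genes of each list by smallest p (or, with none called, the 2 highest by FPKM), the tested BPI, lysozyme and WAP genes, the nearest tested neighbours and the 5 most alike profiles. Other genes, among them PGLYRP3, STAT3 and the apocrine genes compared with PIP, were named after their values were seen. Some genes of the lists enter the counts and sums and are not reported here by name. Alternatives were RLE factors, other filters, DESeq2 1.42.0, limma 3.58.1 on log2(FPKM + 0.5) or log2(FPKM + 0.1), a replicate block and leaving out each library. The fit was tested on simulated data. Counting error alone limits genes such as BPIFA1, at 4.99 to 70 estimated reads per library.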

Additional observations from a re-analysis of the deposited data

How the results depend on the processing

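Leaving out 1 library gave between 468 and 3925 genes changed, and 14 to 37 of the secretory defence genes, against 1377 and 19 with all. These counts of secretory defence genes include genes picked for their pattern, whose calls are no support. Without the 4 picked genes, 16 were called with all libraries. The count of 3925 came without shNC 3, and leaving out any other library gave 468 to 1013. Why these counts differ was not tested. With a replicate block there were 1117 and 18. The replicate numbers did not pair the libraries, as same-numbered libraries had correlations of 0.0091 to 0.071 in their deviations, and not every library correlated best with its own number. By limma on log2(FPKM + 0.5) BPIFA1 differed by -1.75 and LYZ by 1.42. SLPI was not called by limma on FPKM (0.27 with either pseudocount, adjusted p = 0.0556 and 0.0539), nor in 4 of the 6 fits that leave out 1 library (0.22 to 0.35 over the 6). LCN2 was called by DESeq2 (0.26) and ranged from 0.20 to 0.33 with 1 library left out. WFDC2 ranged from -0.068 to 0.11 in those fits. The cause was not tested. PIGR, SLPI and LCN2 kept their direction under all 13 alternatives. BPIFA1, BPIFB1, LYZ and PIP did so too, PIP between 0.11 and 0.83. These 4 were picked for their pattern in these same libraries, so that is no independent support. Among the 61 other genes put through the same alternatives, 698 of 788 values kept direction and call, 44 lost and 20 gained a call, and 26 changed sign. With 1 library left out the ranges of those that changed sign were -0.23 to 0.29 for EPPIN, -0.19 to 0.15 for EFCAB8, -0.056 to 0.090 for CPSF6, -0.0045 to 0.061 for SDC4, -0.063 to 0.018 for C1orf116, -0.032 to 0.014 for PIGT, -0.16 to 0.017 for PTGES2, -0.25 to 0.053 for FCGRT, -0.030 to 0.75 for SCGB2A2, -0.66 to 0.030 for TFF3, -0.056 to 0.057 for NFKB1, -0.13 to 0.022 for NFKB2, -0.058 to 0.024 for RELA, -0.00030 to 0.026 for RELB, -0.15 to 0.060 for STAT5A and -0.052 to 0.046 for STAT5B. PIGT was also at 0.0010 with no low-count filter, and RELB at -0.0051 and -0.0053 by limma with the pseudocounts of 0.5 and 0.1.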

Other observations

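CXCL14, an antimicrobial chemokine of epithelia, did not pass the filter on low counts and was not tested. It was at 0.0510, 0 and 0 CPM in shCUEDC1 1 to 3, against 1.62, 1.36 and 0.0525 CPM in shNC 1 to 3, so that shNC 3 lay with the shCUEDC1 libraries. CXCL14 overlaps genes on the opposite strand.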
